A study of Homo sapiens with 6 samples.

Results

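Polycomb proteins and the enzymes that add or remove methyl groups on histones were followed by RNA sequencing in an established line of human embryonic stem cells, KhES-1. The members were taken from a list of 44 named genes, made of polycomb subunits, histone lysine methyltransferases and histone lysine demethylases, and the rule that names them uses no measured value. Of the 44, 43 had a row among the 23346 gene rows of the deposited table, and all 43 reached a mean of 0.5 RPKM and were tested among 14776 genes. MTF2P1 had no row under that name and is not analysed here, and KDM7A was read from the row with its older symbol JHDM1D.

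One set of cultures was kept in AKIT, a culture medium known to replace the growth factors FGF2 and TGF-beta by small inhibitors of GSK3, of DYRK kinases and of calcineurin. The control cultures were kept in Essential 8 (E8), a defined medium with both growth factors. All cells were of the same line and grew on dishes coated with 0.5 µg of a laminin fragment for each square cm. The series has 3 libraries per medium, and 3 AKIT libraries and E8 replicates 1 and 2 were compared, while E8 replicate 3 was not analysed here. Nothing in the labels tells whether the replicates came from cultures grown apart, so the p-values measure only how far these libraries spread, which may be technical.

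Polycomb proteins form repressive complexes of 2 kinds. PRC2 methylates lysine K27 of histone H3 through EZH1 or EZH2, held together by SUZ12 and EED, and accessory subunits such as JARID2 and PHF19 steer it to chromatin. PRC1 adds ubiquitin to histone H2A through RING1 or RNF2, paired with a PCGF protein, and its canonical form binds the PRC2 mark through a CBX protein and joins chromatin sites through PHC proteins. In embryonic stem cells the complexes are known to keep developmental regulators such as the HOX genes silent but ready for use. Methylation of K9 is linked to heterochromatin, that of K4, K36 and K79 to transcribed genes, and the KDM enzymes take such marks away.

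The 2 subunits SUZ12 and EZH2 of PRC2 and the PRC1 subunit CBX7 carry much of what follows, and the 250 bases before their gene starts are shown because SUZ12 rose, CBX7 fell and EZH2 lay next to the threshold. The sequences are those of RefSeq on build GRCh38.p14, 5′ to 3′ along the gene, at chr17:31936757-31937006 on the + strand for SUZ12, chr7:148884292-148884541 on the - strand for EZH2 and chr22:39152681-39152930 on the - strand for CBX7. Capitals mark matches, on either strand, to the E2F letters TTTCCCGC, TTTCGCGC, TTTGCCGC or TTTGGCGC, to the NF-Y box CCAAT and to the GC box GGGCGG. Neighbouring matches can overlap each other.
SUZ12: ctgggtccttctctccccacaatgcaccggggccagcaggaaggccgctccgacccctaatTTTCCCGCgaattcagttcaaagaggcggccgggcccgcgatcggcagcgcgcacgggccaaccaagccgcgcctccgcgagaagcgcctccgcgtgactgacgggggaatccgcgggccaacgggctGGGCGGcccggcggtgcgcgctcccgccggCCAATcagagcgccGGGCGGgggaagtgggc
EZH2: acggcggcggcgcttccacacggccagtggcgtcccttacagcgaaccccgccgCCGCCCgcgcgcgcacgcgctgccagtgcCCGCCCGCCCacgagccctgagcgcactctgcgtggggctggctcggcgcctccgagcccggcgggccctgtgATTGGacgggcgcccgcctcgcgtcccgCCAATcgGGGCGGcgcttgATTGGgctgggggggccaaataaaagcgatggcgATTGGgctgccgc
CBX7: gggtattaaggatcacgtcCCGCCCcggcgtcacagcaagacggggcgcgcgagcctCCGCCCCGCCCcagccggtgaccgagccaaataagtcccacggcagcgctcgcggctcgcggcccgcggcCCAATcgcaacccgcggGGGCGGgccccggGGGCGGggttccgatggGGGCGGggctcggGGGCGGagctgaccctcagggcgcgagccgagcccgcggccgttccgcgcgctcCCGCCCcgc

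The 3 windows had a G and C content of 72.8% for SUZ12, 75.6% for EZH2 and 78.8% for CBX7. The median over the 40 member windows found in RefSeq was 68.6%, and over all 35116 windows of the same length it was 58.0%. The EZH2 window held 4 NF-Y boxes and 4 GC boxes, the CBX7 window 1 NF-Y box and 8 GC boxes, and the SUZ12 window 1 match to the E2F letters, 1 NF-Y box and 2 GC boxes. A GC box stood in 30 of 40 member windows, against 42.6% of all windows. NF-Y boxes stood in 14 of 40, against 32.0%, and E2F letters in 3 of 40 (EZH1, KDM1B and SUZ12), against 2.79%. The ETS letters CCGGAAG, searched for in the same way, matched in 4 of 40 member windows (8.52% of all) and the TCF letters CTTTGAT in 0 (2.26%). These matches describe letters in a window and were not tied to any change in level.

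The values are RPKM, that is reads scaled by gene length and by library depth, as the authors deposited them, and rested on 16242864 to 23263095 reads per library. Each difference is a mean log2(RPKM + 1) in AKIT less that in E8, ± the standard error of limma's moderated test, and understates changes of low genes. "Rose" and "fell" are used of genes with a Benjamini-Hochberg adjusted p under 0.05 over all genes tested. Errors of means are SD over the 3 AKIT and the 2 E8 libraries. The 8 pluripotency markers, POU5F1, NANOG, SOX2, LIN28A, DPPA4, TDGF1, L1TD1 and PODXL, were present in every library and summed to 3528 to 3580 RPKM in AKIT and 4289 to 4350 RPKM in E8, and 2 of them fell. AKIT replicate 2 stood apart on the second principal component and lay nearer to E8 on the first, so results are also given without it. The first component separated the media, so this library was picked partly by the outcome under test. Leaving it out favours more calls, and calls gained that way are not read as added support.

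Few members changed. JARID2, SUZ12 and NSD1 rose and CBX7 fell. These were 3 of 43 members that rose (6.98%), where 8.22% of all genes tested rose, and 1 that fell (2.33%), where 11.7% of all genes fell. The median difference of the members was -0.05 and that of all tested genes -0.01. The median size of the difference, sign left aside, was 0.16 for the members and 0.24 for all tested genes. In 20 of 43 members (46.5%) the AKIT libraries lay all on the same side of both E8 libraries, as they did in 54.4% of all tested genes. In 9 members all AKIT libraries were higher (25.8% of all tested genes) and in 11 all were lower (28.6%). In bulk RNA, fewer cells of a kind and less RNA per cell cannot be told apart.

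**Figure D1:**
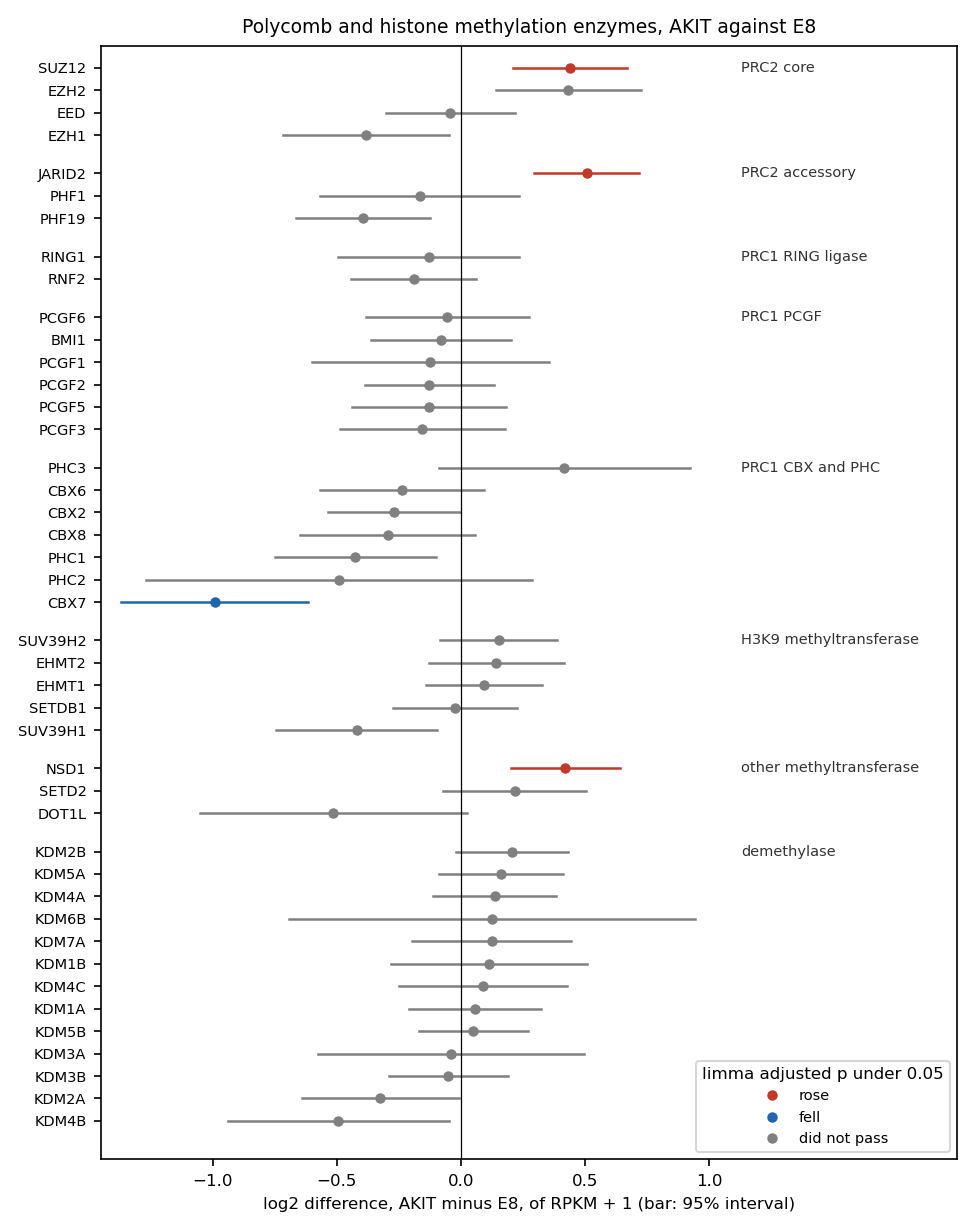
Log2 difference of RPKM + 1, AKIT minus E8 (horizontal axis), for the 43 members in rows by role; points are the estimates of limma's test and bars their 95% intervals. JARID2, SUZ12 and NSD1 (red) lie right of 0, CBX7 (blue) lies left of it at -0.99, and the 39 members in grey did not pass.

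Among the 4 core subunits of PRC2, SUZ12 rose, EZH2 missed the threshold by a small margin, and EED and EZH1 did not pass. SUZ12, the scaffold on which the complex is built, stood at 19.7, 17.7 and 18.9 RPKM in AKIT replicates 1, 2 and 3, against 13.8 and 13.4 RPKM in E8 replicates 1 and 2. The 3 AKIT libraries were all above both E8 libraries. The means were 18.8 ± 1.02 RPKM in AKIT and 13.6 ± 0.289 in E8, a ratio of 1.38 (difference 0.44 ± 0.10 on the log2 scale, limma adjusted p = 0.0232). SUZ12 lost its call in limma when the trend of each library on GC content was removed (adjusted p = 0.0525) and with AKIT replicate 1, AKIT replicate 3 or either E8 library left out (0.0545 to 0.208), the alternatives as a whole giving 0.00535 to 0.208. Part of the gene exists as a near-identical copy, SUZ12P, which had its own row of 99, 92 and 66 reads in AKIT and 72 and 52 in E8, so that the level of SUZ12 carries the uncertainty of shared reads.

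EZH2, the catalytic subunit typical of dividing cells, stood at 4.90, 5.03 and 5.30 RPKM in AKIT, against 3.88 and 3.14 RPKM in E8. The groups did not overlap, and the ratio of the means was 1.45 (log2 difference 0.43 ± 0.12, 95% interval 0.14 to 0.73, limma adjusted p = 0.0501). It passed in 8 of 17 alternatives, among them the fit without AKIT replicate 2 (limma adjusted p = 0.0444). It did not pass without AKIT replicate 1 or without AKIT replicate 3 (limma adjusted p = 0.0864 and 0.115). Over all 17 alternatives, those without an E8 library among them, the log2 difference of EZH2 ranged from 0.32 to 0.55. Its paralogue EZH1, with weaker methyltransferase activity and known from resting cells, stood at 3.93, 4.90 and 5.004 RPKM in AKIT, against 5.72 and 6.89 RPKM in E8. All AKIT libraries were below both E8 libraries, and the difference did not pass (-0.38 ± 0.14, limma adjusted p = 0.103).

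Set side by side, the sum of EZH1 and EZH2 was 9.69 ± 0.763 RPKM in AKIT and 9.82 ± 0.309 RPKM in E8, while its make-up differed. EZH2 gave 55.5%, 50.6% and 51.4% of that sum in AKIT, against 40.4% and 31.3% in E8. EZH2 was thus above EZH1 in each AKIT library and below it in each E8 library. This ratio was not tested beyond the separate tests of its parts, and an exact permutation test of 3 against 2 libraries cannot reach 0.05. EED, which binds the methyl mark that PRC2 makes, was at 3.86, 3.88 and 3.90 RPKM in AKIT, against 4.10 and 3.95 RPKM in E8, with a 95% interval of the difference of -0.30 to 0.22.

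JARID2, a DNA-binding accessory subunit of PRC2 without demethylase activity of its own, was the most abundant member by far. It stood at 177, 183 and 176 RPKM in AKIT, against 126 and 124 RPKM in E8. The libraries of each medium lay close together and the media far apart (log2 difference 0.51 ± 0.09, ratio of means 1.42, limma adjusted p = 0.0112). These levels rested on 19665 to 24466 reads per library in AKIT and on 12838 and 11611 in E8. The call ended with either E8 library left out (limma adjusted p = 0.142 and 0.156), in a range of 0.00233 to 0.156.

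The polycomb-like proteins, which belong to the other form of PRC2, had lower means in AKIT, and none passed. PHF19 stood at 8.46, 7.30 and 7.88 RPKM in AKIT, against 10.1 and 11.3 RPKM in E8, all AKIT libraries being lower (log2 difference -0.39 ± 0.11, limma adjusted p = 0.0510). Without AKIT replicate 2 the fall of PHF19 passed (-0.35, limma adjusted p = 0.0480). Without AKIT replicate 1 or without AKIT replicate 3 it did not pass (limma adjusted p = 0.0641 and 0.104). Over all alternatives, those without an E8 library among them, the log2 difference of PHF19 ranged from -0.47 to -0.31. PHF1 was at 11.4, 17.1 and 12.3 RPKM in AKIT, against 14.7 and 15.6 RPKM in E8, with AKIT replicate 2 above E8 and the others below. MTF2, the third polycomb-like gene and not among the members, was at 34.1, 32.3 and 33.2 RPKM in AKIT, against 40.6 and 39.7 RPKM in E8 (log2 difference -0.27 ± 0.09, limma adjusted p = 0.0748). Of the summed RPKM of JARID2, MTF2, PHF19 and PHF1, JARID2 gave 76.5% ± 0.208 in AKIT and 65.5% ± 0.590 in E8.

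**Figure D2:**
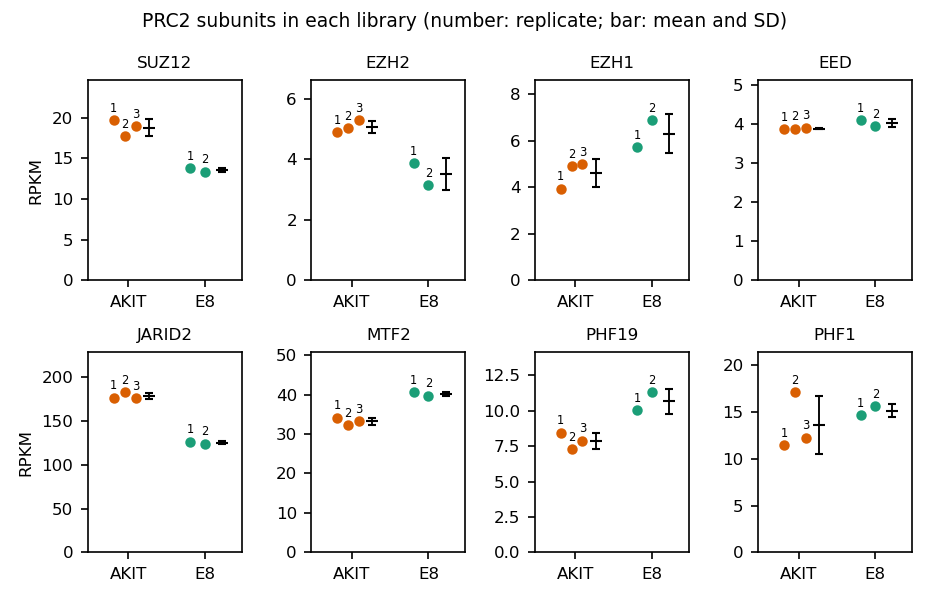
RPKM (vertical axes, from 0) of 8 PRC2 genes in each library, AKIT in orange and E8 in green; numbers name the replicate and the black bars give mean and SD. In SUZ12, EZH2 and JARID2 all AKIT libraries lie above E8, in EZH1, MTF2 and PHF19 all lie below, and EED is at 3.86 to 4.10 RPKM in all 5.

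Of the 15 PRC1 members, 14 had a lower mean log2 level in AKIT, with a median difference of -0.16, where 51.2% of all tested genes were lower. With quantile normalization 12 of 15 were lower, where 46.9% of all tested genes were, and 12 of 15 were lower without E8 replicate 1. CBX7 fell and was the single call among them.

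CBX7, a chromodomain protein of canonical PRC1 known as the prevailing CBX of mouse embryonic stem cells, had the largest difference of all members. It stood at 4.74, 5.92 and 7.03 RPKM in AKIT, against 11.8 and 13.4 RPKM in E8. The highest AKIT library was well below the lower E8 library, and the ratio of the means was 0.468 (log2 difference -0.99 ± 0.16, limma adjusted p = 0.00837). It was called as well without AKIT replicate 1, 2 or 3 (limma adjusted p = 0.0177, 0.00827 and 0.0135). It lost its call with either E8 library left out (limma adjusted p = 0.0671 and 0.0948), in a range of 0.00195 to 0.0948.

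The other CBX members differed less. CBX2 was the most abundant of them, at 58.9, 72.9 and 63.8 RPKM in AKIT, against 78.9 and 78.2 RPKM in E8. All AKIT libraries were lower, and the difference did not pass (-0.27 ± 0.11, limma adjusted p = 0.134). CBX6 was at 9.42, 8.33 and 11.4 RPKM in AKIT, against 11.9 and 11.2 RPKM in E8. CBX8 was at 1.64, 1.39 and 1.07 RPKM in AKIT, against 1.90 and 1.87 RPKM in E8, levels that rest on 32 to 59 reads. The 4 CBX members together summed to 82.2 ± 6.98 RPKM in AKIT and 104.6 ± 0.0866 RPKM in E8. CBX2 gave 79.3% ± 2.88 of this sum in AKIT and 75.1% ± 0.537 in E8, and CBX7 gave 7.16% ± 1.12 in AKIT and 12.0% ± 1.05 in E8.

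The PHC proteins, which join PRC1 units through a SAM domain, went different ways. PHC1, the form typical of embryonic stem cells, stood at 14.7, 18.6 and 13.9 RPKM in AKIT, against 20.8 and 21.7 RPKM in E8, and did not pass (-0.42 ± 0.14, limma adjusted p = 0.0710). PHC2 was at 3.57, 2.09 and 0.926 RPKM in AKIT, against 3.46 and 3.01 RPKM in E8. PHC3 was at 4.52, 6.35 and 3.38 RPKM in AKIT, against 3.11 and 3.31 RPKM in E8, the only PRC1 member with a higher mean in AKIT (0.42 ± 0.21, limma adjusted p = 0.206). The AKIT libraries spread widely for PHC2 and overlapped E8, while those of PHC3 all lay above E8. In the same order as PHC2, the fibroblast marker LUM was at 5.81, 1.83 and 0.0244 RPKM in AKIT and 0 in both E8 libraries. COL3A1 and DCN had this order in AKIT too, while COL1A1, COL1A2, THY1, POSTN and PDGFRA did not. The order is not particular to fibroblast markers. Some markers of other lineages had it as well, among them HAND1, KDR, MIXL1 and CXCR4, and others did not. Over all 8 fibroblast and mesenchyme markers the summed level, mostly from THY1, was 203 to 264 RPKM in AKIT and 342 to 343 RPKM in E8. Of these, 2 of the 6 tested markers fell, and none of the 8 was at 0 in every library. Their part in the level of PHC2 was not tested.

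The RING ligases, which carry the activity of PRC1, and their PCGF partners did not pass. RNF2 stood at 13.95, 13.0 and 15.4 RPKM in AKIT, against 16.3 and 16.1 RPKM in E8, without overlap (-0.19 ± 0.11, limma adjusted p = 0.245, 95% interval -0.44 to 0.06). RING1 was at 8.02, 11.4 and 10.2 RPKM in AKIT, against 11.4 and 10.2 RPKM in E8, with overlap. The order of the 6 PCGF genes was alike at the top in both media, PCGF2 leading with 46.5% ± 2.83 of their summed RPKM in AKIT and 46.3% ± 0.495 in E8, and PCGF3 following with 32.7% ± 3.56 in AKIT and 33.2% ± 0.155 in E8.

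PCGF2, the partner in canonical PRC1, was at 24.1, 25.6 and 29.02 RPKM in AKIT, against 29.8 and 27.7 RPKM in E8. PCGF3, a partner in a variant complex, was at 15.8, 21.7 and 18.1 RPKM in AKIT, against 21.4 and 19.8 RPKM in E8. PCGF6, which works with MGA and E2F6, was at 5.53, 4.80 and 6.24 RPKM in AKIT, against 6.22 and 5.30 RPKM in E8. In all 3 the media overlapped. BMI1, the other canonical partner, was at 3.84, 4.27 and 3.67 RPKM in AKIT, against 4.03 and 4.38 RPKM in E8. Its row nearly repeats that of the readthrough transcript COMMD3-BMI1, with 306 against 311 reads in AKIT replicate 1, so the level of BMI1 is uncertain. PCGF5, close kin of PCGF3, was at 1.22, 1.10 and 1.005 RPKM in AKIT, against 1.39 and 1.22 RPKM in E8. PCGF1, which joins BCOR and KDM2B, was at 0.949, 1.47 and 1.14 RPKM in AKIT, against 1.88 and 0.951 RPKM in E8, on only 14 to 31 reads. For PCGF1 the 2 E8 libraries differed more than the media did.

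**Figure D3:**
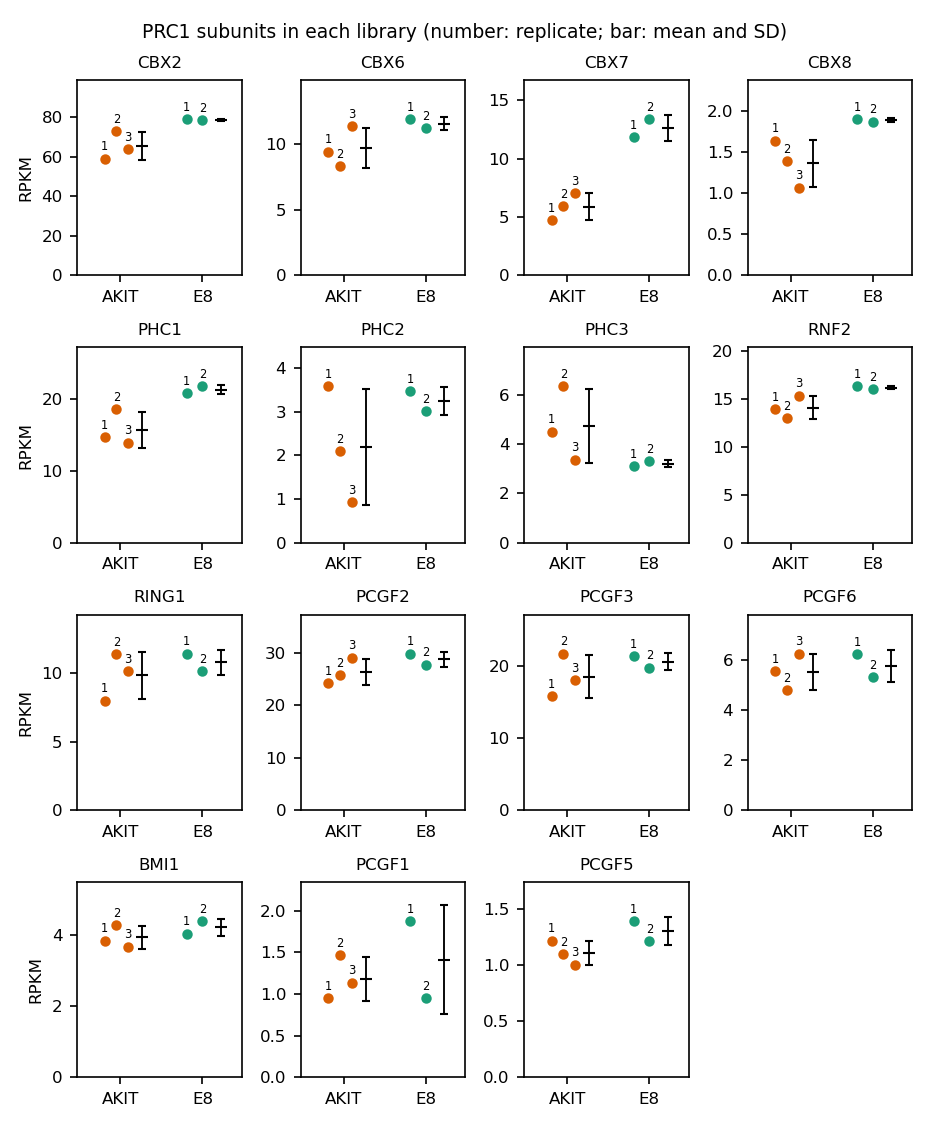
RPKM (vertical axes, from 0) of 15 PRC1 genes in each library, AKIT in orange and E8 in green; numbers name the replicate and the black bars give mean and SD. CBX7 stands apart between the media, at 4.74 to 7.03 RPKM in AKIT and 11.8 to 13.4 RPKM in E8, while the PCGF genes overlap.

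Of the 5 K9 methyltransferases none passed. SUV39H1, which with SUV39H2 builds the trimethyl mark of constitutive heterochromatin, stood at 11.2, 15.1 and 14.2 RPKM in AKIT, against 18.2 and 18.4 RPKM in E8 (-0.42 ± 0.14, limma adjusted p = 0.0731). SUV39H2 was at 15.1, 14.4 and 16.1 RPKM in AKIT, against 13.97 and 13.1 RPKM in E8 (0.15 ± 0.10, limma adjusted p = 0.315). The paralogues lay on opposite sides of E8 without overlap, and SUV39H2 gave 53.1% ± 4.29 of their sum in AKIT and 42.5% ± 1.30 in E8. EHMT1 was at 25.0, 24.6 and 27.6 RPKM in AKIT, against 25.0 and 23.1 RPKM in E8. EHMT2, its partner in making the dimethyl mark, was at 26.3, 28.9 and 32.7 RPKM in AKIT, against 26.9 and 25.7 RPKM in E8. SETDB1, known to silence endogenous retroviruses in embryonic stem cells, was at 9.15, 10.4 and 10.2 RPKM in AKIT, against 9.91 and 10.3 RPKM in E8. All 3 overlapped between media, with 95% intervals of the difference of -0.14 to 0.33 for EHMT1, -0.13 to 0.42 for EHMT2 and -0.27 to 0.23 for SETDB1.

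Among the methyltransferases of other sites, NSD1, which makes the dimethyl mark on K36, rose. It stood at 42.1, 40.4 and 43.4 RPKM in AKIT, against 29.8 and 32.4 RPKM in E8, with means of 42.0 ± 1.49 RPKM in AKIT and 31.1 ± 1.86 RPKM in E8 (difference of 0.42 ± 0.09, limma adjusted p = 0.0230). NSD1 lost its call when the trend of each library on gene length was removed (limma adjusted p = 0.0609) and with AKIT replicate 1, AKIT replicate 3 or either E8 library left out (0.0513 to 0.237), the alternatives as a whole giving 0.00647 to 0.237. SETD2, which makes the trimethyl mark on K36, was at 23.1, 29.7 and 26.3 RPKM in AKIT, against 22.2 and 22.7 RPKM in E8, without overlap (0.22 ± 0.12, limma adjusted p = 0.244). DOT1L, the only known K79 methyltransferase, was at 16.0, 27.0 and 15.5 RPKM in AKIT, against 28.3 and 26.5 RPKM in E8. AKIT replicate 2 of DOT1L lay between the E8 libraries, and the other AKIT libraries were far below them (-0.51 ± 0.23, limma adjusted p = 0.154).

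Of 13 demethylases none passed, where 8.22% of all genes tested rose and 11.7% fell. With the main settings 9 were higher and 4 lower in AKIT, where 51.2% of all tested genes were lower. The split was 8 higher and 5 lower with array weights, without AKIT replicate 2 and without E8 replicate 1. It was 10 higher and 3 lower without E8 replicate 2. The median difference was 0.09, against 0.03 with the GC trend removed and 0.15 without E8 replicate 2. The K36 demethylases of the KDM2 pair lay on opposite sides of E8. KDM2B, which brings a variant PRC1 to CpG islands, was at 34.9, 35.5 and 39.3 RPKM in AKIT, against 31.6 and 31.4 RPKM in E8 (0.21 ± 0.10, limma adjusted p = 0.168). KDM2A was at 24.2, 31.2 and 24.0 RPKM in AKIT, against 32.4 and 33.9 RPKM in E8 (-0.32 ± 0.13, limma adjusted p = 0.131). The ratio of KDM2B to KDM2A was 1.44, 1.14 and 1.64 in AKIT, against 0.975 and 0.927 in E8.

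Of the KDM4 enzymes, which act on trimethylated K9 and K36, only KDM4B had AKIT libraries all on the same side of E8. KDM4B was at 12.7, 16.8 and 10.2 RPKM in AKIT, against 18.6 and 18.8 RPKM in E8 (-0.49 ± 0.19, limma adjusted p = 0.108). KDM4A was at 32.0, 27.9 and 31.0 RPKM in AKIT, against 26.1 and 28.8 RPKM in E8. KDM4C was at 5.29, 6.61 and 5.34 RPKM in AKIT, against 4.77 and 5.90 RPKM in E8. For KDM4A and KDM4C the media overlapped. In the KDM3 pair, which removes lower methyl states of K9, KDM3B was at 29.5, 33.2 and 34.0 RPKM in AKIT, against 32.4 and 34.3 RPKM in E8. KDM3A was at 10.02, 12.0 and 6.52 RPKM in AKIT, against 8.71 and 10.4 RPKM in E8. AKIT replicate 3 was the lowest library for KDM3A and AKIT replicate 2 the highest.

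The K4 demethylases were close in the media. KDM1A, also called LSD1, was at 53.2, 49.3 and 60.5 RPKM in AKIT, against 53.6 and 50.5 RPKM in E8 (95% interval of the difference -0.21 to 0.32). KDM1B was at 1.92, 1.20 and 1.88 RPKM in AKIT, against 1.34 and 1.54 RPKM in E8. KDM5B was at 48.0, 51.8 and 51.2 RPKM in AKIT, against 46.8 and 50.3 RPKM in E8 (95% interval -0.17 to 0.27). These 3 overlapped between media. KDM5A was at 7.76, 8.63 and 8.32 RPKM in AKIT, against 7.04 and 7.45 RPKM in E8, all AKIT libraries being higher (0.16 ± 0.11, limma adjusted p = 0.310). KDM5B-AS1, the antisense row at KDM5B, fell (103 to 191 reads in AKIT, against 212 and 209 in E8, limma adjusted p = 0.0183), and since the use of strand is not given, its reads and those of KDM5B cannot be told apart where they overlap.

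KDM6B, which removes the mark of PRC2, had the largest SD of any member over the AKIT libraries (0.67 on the log2 scale), at 2.78, 3.28 and 0.823 RPKM, against 1.78 and 1.88 RPKM in E8. AKIT replicates 1 and 2 lay above E8 and replicate 3 below it (0.13 ± 0.35, limma adjusted p = 0.824, 95% interval -0.69 to 0.94). KDM7A, which acts on dimethylated K9 and K27, was at 4.52, 4.95 and 3.76 RPKM in AKIT, against 3.84 and 4.05 RPKM in E8, with overlap.

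The number of members that fell differed with AKIT replicate 2 left out. That library was picked partly for lying nearer to E8, so the calls added here are favoured by the choice. They are listed but not read as support for a change. Without that library 4 members rose (9.3%), where 14.5% of all genes tested rose, and 9 fell (20.9%), where 17.8% of all genes fell. The 4 members called with all libraries were called again, and 1 further rise (EZH2) and 8 further falls were added. The falls were those of PHF19, PHF1, CBX2, PHC1, SUV39H1, DOT1L, KDM2A and KDM4B. DOT1L had the largest of the 8, at -0.76 ± 0.09 (limma adjusted p = 0.00220), followed by KDM4B at -0.67 ± 0.12 (0.00908) and PHC1 at -0.54 ± 0.09 (0.00662). SUV39H1 followed at -0.50 (limma adjusted p = 0.0244), KDM2A at -0.44 (0.00947), CBX2 at -0.35 (0.0189) and PHF1 at -0.33 (0.0388). With all libraries kept and array weights 8 of 43 members fell, a share like that of all genes, of which 2740 of 14776 fell. Over all members AKIT replicate 2 was the nearest AKIT library to the E8 mean in 18 of 43, as it was in 40.5% of all tested genes.

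**Figure D4:**
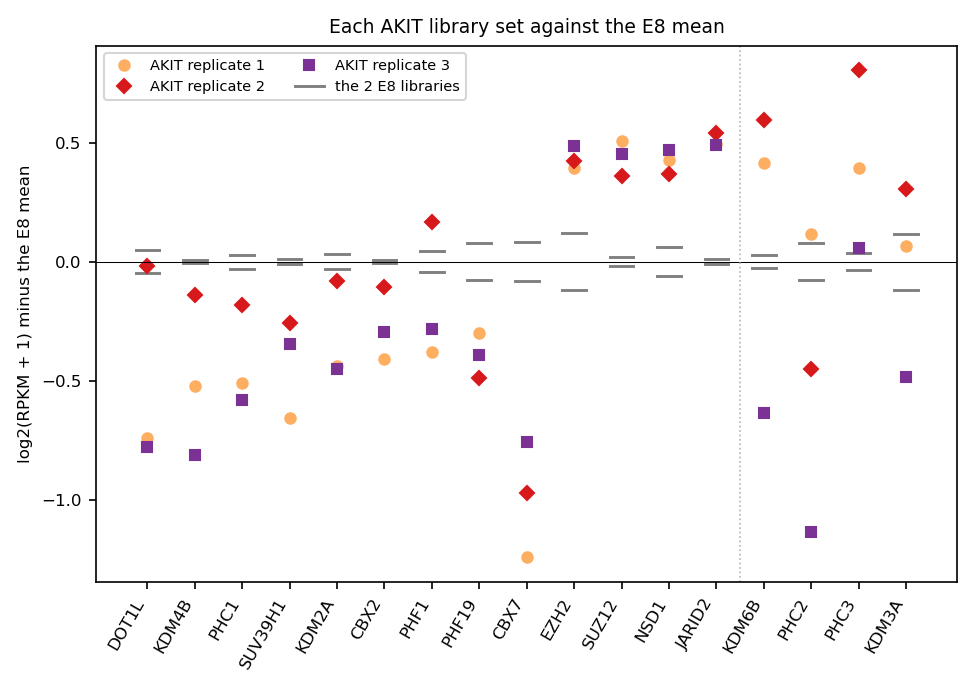
Level of 17 members in each AKIT library as log2(RPKM + 1) minus the E8 mean (vertical axis); orange circles, red diamonds and purple squares are AKIT replicates 1, 2 and 3, and grey lines the 2 E8 libraries. Left of the dotted line stand the 13 members called without AKIT replicate 2, where the red diamond of DOT1L lies at E8 and those of JARID2, SUZ12, NSD1, EZH2 and CBX7 lie with the other AKIT libraries; right of it stand 4 members with wide spread in AKIT.

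Genes that work with the members were followed in 3 lists. Of 28 tested polycomb partners, 5 rose (17.9%), with a median difference of 0.02, where 8.22% of all genes tested rose. With either E8 library left out 0 partners rose. With the main settings 0 fell, where 11.7% of all genes tested fell, while 4 were lower at an unadjusted p under 0.05. With array weights 4 partners fell, where 2740 of all genes did. Without AKIT replicate 2, 3 partners fell, where 17.8% of all genes did, and 1 fell with quantile normalization and with voom. MYSM1, a protease that takes ubiquitin off histone H2A, rose to 46.5 ± 8.96 RPKM in AKIT, against 24.5 ± 2.52 in E8 (0.88 ± 0.16, limma adjusted p = 0.0132). ASXL2, a cofactor of the H2A deubiquitinase BAP1, rose by 0.65 ± 0.10 (limma adjusted p = 0.00761). MGA, the DNA-binding partner of PCGF6, rose by 0.62 ± 0.09 (limma adjusted p = 0.00692). SCML1, a homologue of the fly polycomb protein Scm, rose to 6.51 ± 0.773 RPKM in AKIT, against 4.13 ± 0.143 in E8 (0.55 ± 0.13, limma adjusted p = 0.0268). This call ended without AKIT replicate 1, AKIT replicate 3 or either E8 library, without the filter and with the GC trend removed, in a range of 0.00677 to 0.202. Each of the other three lost its call with either E8 library left out, MYSM1 in a range of 0.00260 to 0.131, ASXL2 of 0.00127 to 0.0967 and MGA of 0.00167 to 0.106.

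Of 47 tested other histone methylation enzymes and their partners, 4 rose and 2 fell (8.51% and 4.26%), where 8.22% of all genes tested rose and 11.7% fell, with a median difference of -0.03. The share that rose was close to that of all genes. SMYD2, a lysine methyltransferase, rose to 6.74 ± 1.53 RPKM in AKIT, against 1.93 ± 0.505 in E8 (1.39 ± 0.19, limma adjusted p = 0.00508). CBX5, the heterochromatin protein HP1-alpha that binds methylated K9, fell to 50.4 ± 5.16 RPKM in AKIT, against 80.7 ± 4.34 in E8 (-0.67 ± 0.11, limma adjusted p = 0.00944). KMT5C, listed as SUV420H2 and a methyltransferase of histone H4, fell by 0.58 on the log2 scale (limma adjusted p = 0.0161). RIOX2, listed as MINA, rose by 0.56 (limma adjusted p = 0.0162). The calls of CBX5, KMT5C and RIOX2 ended with either E8 library left out, in ranges of 0.00110 to 0.121, 0.00300 to 0.163 and 0.00402 to 0.162, and that of SMYD2 ended without E8 replicate 2 (0.0606).

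Of 126 developmental genes known as polycomb targets in embryonic stem cells, only 22 reached the filter, and of these 2 rose and 6 fell. A gene that passes a filter on level only through the medium where it is high has to differ. Nothing is therefore read from these counts or from the calls of such genes. SOX21, a SOX factor, stood at 5.91, 11.2 and 2.75 RPKM in AKIT, against 40.9 and 41.7 RPKM in E8, and fell (-2.63 ± 0.42, limma adjusted p = 0.00845). IRX2, an Iroquois homeobox gene, was at 12.2, 29.2 and 13.5 RPKM in AKIT, against 73.9 and 66.2 RPKM in E8, and fell (-1.98 ± 0.33, limma adjusted p = 0.00965). EMX1, a forebrain homeobox gene, had 6, 0 and 5 reads in AKIT, against 76 and 80 in E8. TBX3, a T-box factor, was at 2.45 ± 0.165 RPKM in AKIT, against 0.412 ± 0.0542 in E8. EMX1 reached the filter only through E8 and TBX3 only through AKIT, so their tests are not read. The calls of SOX21 and IRX2 ended with either E8 library left out, in ranges of 0.000448 to 0.0718 and 0.000164 to 0.0852. Markers of early lineages went different ways. The 6 mesoderm and primitive streak markers summed to 139, 117 and 88.1 RPKM in AKIT, against 31.8 and 32.4 RPKM in E8, mostly from KDR, with 1 of 3 tested markers rising. The 6 endoderm markers summed to 10.6, 8.05 and 6.31 RPKM in AKIT, against 3.10 and 3.19 RPKM in E8. Most of this came from CXCR4 and FOXA2, and 1 of 3 tested endoderm markers rose. The 6 trophoblast and amnion markers summed to 28.5, 12.2 and 10.3 RPKM in AKIT, against 34.0 and 31.6 RPKM in E8. IGFBP3 gave the largest part of this sum in each library. IGFBP3 and KRT7 were lower in every AKIT library than in E8, HAND1, TFAP2B and CGA were higher in every AKIT library, and GATA3 overlapped. Of the 6 markers, 2 of 5 tested fell. The 6 neuroectoderm markers summed to 205, 221 and 206 RPKM in AKIT, against 233 and 218 RPKM in E8, mostly from NES. Of these, 1 of 3 tested rose. No marker of these lists was at 0 in every library. Some markers are also target genes, and FOXA2 is both the endoderm marker that rose and a target that rose. The part of the markers in the target genes' levels was not tested. None of the 38 HOX genes reached the filter. The highest HOX level in any AKIT library was 0.403 RPKM (HOXB2) and in any E8 library 0.447 RPKM (HOXB1), and the 38 genes together summed to 1.97, 1.71 and 1.04 RPKM in AKIT, against 1.29 and 0.864 RPKM in E8.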

How the data were processed

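RNA of KhES-1 cells was column-purified and sequenced on an Illumina platform, per the labels' protocols. The authors deposited RPKM values for 23346 gene rows, with hg19 and GRCh37 as builds per the submitters' processing notes. Not given in the sources used here were the aligner, counting tool, annotation and strand handling. Columns were matched to 5 libraries by title. The 3 AKIT libraries were set against 2 E8 libraries, E8 replicate 3 not being analysed here.

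RPKM values within a gene step by the worth of 1 read, which gave depths of 16242864 to 23263095 reads, with whole reads (tolerance 0.02) for 100% of values in the 19892 rows above 0. Chi-square per gene was 3.42 between the E8 libraries and 17.5 to 33.3 between AKIT libraries, so none was merged.

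Levels were compared in limma 3.58.1 under R 4.3.3, with trend, two-sided and without covariates, on log2 of RPKM plus 1. Genes had to average 0.5 RPKM, and p-values were adjusted by Benjamini-Hochberg over 14776 genes and called at 0.05. The fit was also run on simulated reads with the same added spread for all genes and libraries. Such reads lack the wider spread of the AKIT libraries, so the run does not vouch for the test on these data. Settings varied were the pseudocount (0.1, 0.5), the filter (none, or 2 RPKM), scaling by median of ratios, quantile normalization, the trend, array weights, a replicate block, voom on recovered reads and omission of each library. Chosen after seeing the data were fits after removal of a loess curve with span 0.3, fitted per library to transcript length or to the GC content of GENCODE release 29. KDM7A was matched to JHDM1D through RefSeq synonyms. Every member is named, with up to 4 called genes by size from each of 3 lists. MTF2, KDM5B-AS1, SUZ12P, COMMD3-BMI1, LUM, other markers named singly and the HOX genes were named after their values were seen. The members and lists were chosen with earlier results of these data known. 1 gene of the list of polycomb partners is not reported here.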

Additional observations from a re-analysis of the deposited data

How the results depend on the processing

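No member changed direction in a way that passed the test under any alternative. PCGF1, not called in any fit, stood at 0.16 without E8 replicate 1 and -0.40 without E8 replicate 2. Of all genes, 2269 rose and 2740 fell with array weights, and 492 and 824 with the replicate block. With each library left out in turn, 142 to 2132 rose and 250 to 2619 fell, the fewest with an E8 library left out. Of the members, 0 rose with the replicate block, and 2, 8 and 3 fell with a minimum mean of 2 RPKM, array weights and voom. With a library left out, 0 to 4 members rose and 0 to 9 fell. Without AKIT replicate 1 and without AKIT replicate 3, 1 rose each. Of the polycomb partners, 2 rose with the replicate block and 3 with the GC trend removed, while 1, 4, 1 and 1 fell with quantile normalization, array weights, voom and the GC trend removed. With a library left out, 0 to 6 partners rose and 0 to 3 fell. Of the other histone methylation enzymes, 8, 7 and 7 rose and 7, 4 and 4 fell with array weights, voom and the length trend removed, and 1 fell with the replicate block. With a library left out, 0 to 9 rose and 0 to 7 fell. Of the polycomb targets, 0 rose and 2 fell with a minimum mean of 2 RPKM, and 4 rose with array weights and with the replicate block. With a library left out, 1 to 5 rose and 1 to 9 fell. The cause of these shifts was not tested, apart from the fewer libraries or genes in a fit.

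Whether replicate numbers pair the libraries cannot be told with 2 E8 libraries. Deviations from the group means correlated at -0.00 and 0.03 between same-numbered libraries. The deviations of the 2 E8 libraries mirror each other, so these are not 2 separate checks. With the block the calls of SUZ12, JARID2 and NSD1 ended (limma adjusted p = 0.0877, 0.0633 and 0.101) while that of CBX7 held (0.0188). AKIT replicate 3 has no same-numbered E8 library here, so the block leaves it without weight. The block estimates therefore equal those without AKIT replicate 3 (0.43, 0.52, 0.40 and -1.11). A fit with a single E8 library assumes that it varies like the AKIT libraries. Depth limits PCGF1, with 14 to 31 reads, and CBX8, with 32 to 59.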
